A study of Homo sapiens with 6 samples.

Results

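Transcripts of 47 cytosolic ribosomal proteins were followed in HEK293 cells, an established human embryonic kidney cell line, that carried an shRNA against the splicing factor PRPF39 or a control shRNA. The transcripts were taken from a list of Ensembl transcript IDs, 1 per gene, and all 47 were found among the 203028 transcripts of each library. They encode 28 proteins of the large subunit (60S) and 19 of the small subunit (40S). The study set 3 libraries of cells with a scrambled control shRNA against 3 libraries of cells with an shRNA against PRPF39, a splicing factor that works with the U1 snRNP, the particle that binds the 5' end of introns. In both groups the shRNA came on a lentivirus and cells with an integrated construct were kept with puromycin, and the untreated parent line was not analysed here. Nothing in the labels states whether the 3 libraries of a group came from separate transductions, so p-values measure the spread between libraries, which may be technical. The libraries were made from bulk polyadenylated RNA, in which fewer cells and less RNA per cell cannot be told apart. They held 113747941 to 246491084 estimated counts. The level of PRPF39 and the markers of the cell line were not analysed here, because the files name transcripts by ID and the reference tables hold no transcript IDs. The pairing of the 47 IDs with gene names came with the list and rests on it.

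The ribosome is built from ribosomal RNA and ribosomal proteins, which are needed in roughly equal amounts. The mRNAs of these proteins are among the most abundant in a dividing cell, are short, and come from genes with introns. They are known for a run of pyrimidines at the very start of the mRNA, the terminal oligopyrimidine tract, through which the mTOR pathway and the protein LARP1 control their translation together. Ribosomal protein genes also have many processed pseudogenes, so a quantifier that shares reads between near-identical transcripts can move reads between them, and every value below carries that uncertainty.

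The start of the genes is shown first because the choice of members did not use it. RefSeq start windows (GRCh38.p14) were found for 36 of the 47 genes. A C within 5 bases of an annotated start, followed by at least 4 pyrimidines (C or T, read on the gene's strand only), was present in 32 of the 36 genes, or 88.9%, and in 25.2% of all 27305 genes of the same table. Counted over single starts, 79.5% of the 44 starts of these genes held it, against 21.1% of all 35116. With the C exactly at the annotated start the shares of starts were 63.6% and 4.07%. The match is a description of these letters, and which start a listed transcript uses was not checked. The windows below run 15 bases to either side of the start, so that base 16 of each is the start used. In all but RPL27 this is also the first base of the gene in RefSeq. Capitals mark the run from its first C within 5 bases of the start. The first 6 belong to the members that were lower with PRPF39 shRNA in the tests below, and the last 3 to members whose change was near 0.
RPL28, chr19:55385917-55385946, plus strand: tcgcccctcgCCTTCCTCTTTCCgtctcag
RPL13A, chr19:49487593-49487622, plus strand: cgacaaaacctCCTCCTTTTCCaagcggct
RPS23, chr5:82278340-82278369, minus strand: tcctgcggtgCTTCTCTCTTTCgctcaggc
RPS16, chr19:39435935-39435964, minus strand: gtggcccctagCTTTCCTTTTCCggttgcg
RPL3, chr22:39319609-39319638, minus strand: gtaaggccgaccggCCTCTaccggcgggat
RPL4, chr15:66504841-66504870, minus strand: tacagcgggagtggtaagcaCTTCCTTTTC
RPLP2, chr11:809952-809981, plus strand: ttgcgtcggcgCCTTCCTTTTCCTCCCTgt
RPS12, chr6:132814554-132814583, plus strand: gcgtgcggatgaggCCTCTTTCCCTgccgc
RPL27, chr17:42998404-42998433, plus strand: ccggggtgaaaggttagcggaagtgtcctt
All 6 lower members had a run, and so had RPLP2 and RPS12. RPL38, whose log2 change was also near 0 (-0.04), had a run too, and its window is not shown. The whole stretch of pyrimidines was 5 bases in RPL3, 12 in RPS23, RPS16 and RPL4, 13 in RPL28 and 14 in RPL13A, where 3 of them precede the capitals. It was 17 bases in RPLP2 and 11 in RPS12. The run of RPL4 starts at the sixth base of the mRNA and goes on past its window. RPL27 had none within 5 bases of the start used. That start lies inside the gene, whose first base in RefSeq is chr17:42998273. Its place among the 4 genes without a run holds for that start only. The median log2 change was -0.22 for the 32 genes with a run and -0.15 for the 4 without.

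Levels are given in TPM, a share of all transcripts in the library that is corrected for transcript length. The members spanned 5.12 to 6112 TPM over single libraries and fell into an abundant and a scarce set. In 37 members the mean over the 6 libraries was at least 390 TPM, with RPL39 (5086 TPM), RPS29 (4518), RPS3A (4476), RPL27 (4456) and RPS2 (4102) at the top. RPL39 lies in the peptide exit tunnel, RPS29 and RPS3A belong to the small subunit. Ordered by mean level, neighbours overlapped over their 6 libraries in 43 of 46 cases, so the order of most adjacent members is not resolved. The exceptions were RPL3 over RPS6, RPL22 over RPS9, and RPL4 over RPS23.

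The other 10 members had means from 7.18 to 77.4 TPM. They were RPS9, RPS27A, RPL38, RPL31, RPL37, RPS19, RPL4, RPS23, RPL28 and RPL13. Their listed transcripts were long, with a median of 2564 bases against 740 in the abundant set, although RPS9 (829 bases), RPS27A (1071) and RPL38 (1170) were not. The listed transcript of RPL37 (7686 bases) equals 77.2% of the length of its whole gene in RefSeq, that of RPL13 (4498 bases) 72.9% and that of RPS23 (3437 bases) 68.3%, where the median over all 47 was 19.9%. The highest value of the scarce set in any library was 95.3 TPM and the lowest of the abundant set 339 TPM. For these 10 genes the list therefore follows a transcript far below the level of the other ribosomal protein mRNAs, and the remaining transcripts of the same genes were not analysed here. Every member had at least 2363 reads in every library.

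**Figure D1:**
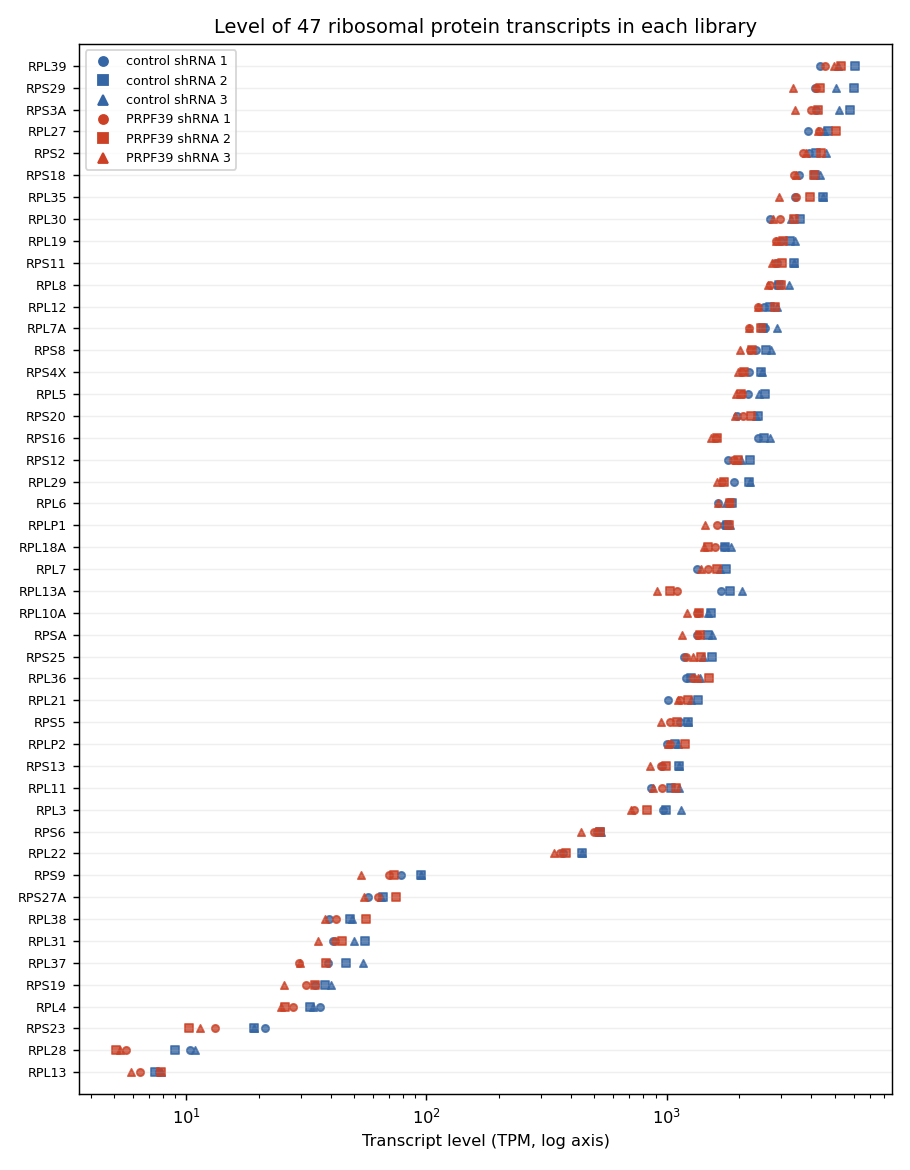
Level of each of the 47 transcripts in TPM (log axis), ordered by the mean, with blue points for the 3 control shRNA and red points for the 3 PRPF39 shRNA libraries. The 37 abundant members lie at 339 TPM or more in every library and the 10 scarce ones at 95.3 TPM or less, and the red points of RPL13A, RPS16, RPL3, RPS23 and RPL28 lie to the left of all blue ones.

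Together the 47 transcripts made up 7.92%, 9.40% and 9.29% of all TPM in control replicates 1, 2 and 3, and 7.69%, 8.43% and 7.32% in PRPF39 shRNA replicates 1, 2 and 3. The means were 8.87% ± 0.82 and 7.81% ± 0.57 (SD, n = 3 each), and the groups overlapped because control replicate 1 lay below PRPF39 shRNA replicate 2. Large-subunit transcripts summed to 1.281, 1.241 and 1.267 times the TPM of small-subunit transcripts in the controls and to 1.321, 1.345 and 1.364 times with PRPF39 shRNA, with no overlap. These sums over chosen members were not tested.

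The main question was which ribosomal protein mRNAs differed in level between the groups. RPL28 and RPS23 fell with PRPF39 shRNA in the test over all 97571 transcripts that passed a low-count filter (adjusted p under 0.05 by the method of Benjamini and Hochberg, edgeR's quasi-likelihood fit). Among the 20216 transcripts that averaged 5 CPM or more (CPM is the count scaled to a library of fixed size), tested on their own and called here the test at 5 CPM, RPL13A, RPS16, RPL3 and RPL4 fell as well. No member rose in either test, and none had a higher level at an unadjusted p under 0.05 in edgeR, DESeq2 or limma-voom.

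These counts lay near the background at 5 CPM. Lower calls were 2 of 47 members against 0.461% of all transcripts tested, and 6 of 47 against 9.13% of those of at least 5 CPM. Higher calls were 0 of 47 against 0.443% and 8.56%. The signs were less mixed than the calls: 44 of 47 members had a log2 fold change below 0, with a median of -0.21 and a range of -0.95 to 0.08, where 48.3% of all transcripts tested lay above 0 and their median was -0.02. Both values depended on single libraries: 33 of 47 members were below 0, with a median of -0.11, without control replicate 2, and 40 of 47, with a median of -0.12, without PRPF39 shRNA replicate 3. Without control replicate 1 all 47 were below 0 and the median was -0.33. Members are not independent of each other, since they share the same 6 libraries. Leaving out any 1 of the 6 libraries took the lower calls of members from 2 to 0 (edgeR). Those of all transcripts went from 450 to between 0 and 12. In these fits 6 to 30 of 47 members were lower at an unadjusted p under 0.05 (edgeR), the 30 without control replicate 1. Of all 102443 to 103933 transcripts tested there, 11672 to 16441 passed that unadjusted threshold in either direction.

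**Figure D2:**
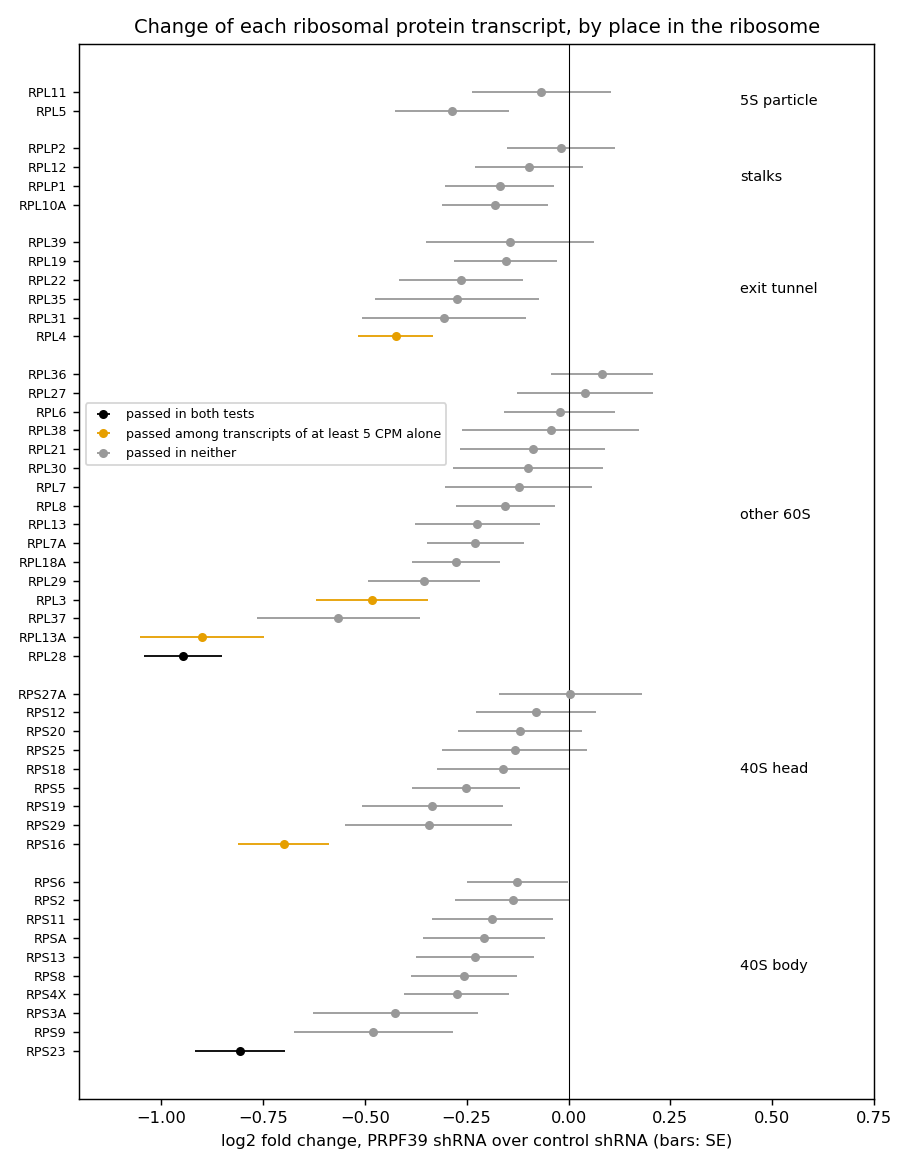
Log2 fold change (PRPF39 shRNA over control shRNA) of each member with its standard error, grouped by place in the ribosome, from the test over all 97571 transcripts; black points passed in both tests and orange points among transcripts of at least 5 CPM alone. RPL28, RPL13A, RPS23 and RPS16 lie from -0.95 to -0.70, while the largest positive value is 0.08, in RPL36.

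The clearest changes among abundant members were those of RPL13A and RPS16. RPL13A (ENST00000391857, 1181 bases) encodes a protein of the outer face of the large subunit, also known from a complex that silences translation of inflammatory mRNAs, and its introns carry small nucleolar RNAs. It stood at 1679, 1839 and 2054 TPM in control replicates 1, 2 and 3 and at 1105, 1033 and 911 TPM with PRPF39 shRNA. The lowest control thus lay well above the highest PRPF39 shRNA library. The mean fell from 1857 ± 189 to 1016 ± 98.3 TPM (SD, n = 3 each), 0.55 times the control. Its log2 fold change was -0.95 ± 0.15 (SE; adjusted p = 0.00844, edgeR) at 5 CPM and -0.90 ± 0.15 over all transcripts, where the adjusted p of 0.0595 missed the threshold. At 5 CPM it passed in all 8 alternatives, with adjusted p up to 0.0424 (edgeR).

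RPS16 (ENST00000251453, 560 bases) encodes a protein of the small-subunit head whose tail reaches the tRNA at the peptidyl site. Its level was 2392, 2534 and 2686 TPM in the controls and 1613, 1620 and 1536 TPM with PRPF39 shRNA, again without overlap and with little spread within a group. The fall from 2537 ± 147 to 1589 ± 46.3 TPM (SD, n = 3 each) is 0.63 times the control. The log2 fold change was -0.75 ± 0.11 (SE; adjusted p = 0.00683, edgeR) at 5 CPM and -0.70 ± 0.11 over all transcripts (adjusted p = 0.051). RPS16 passed in all 8 alternatives at 5 CPM too.

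RPL3 (ENST00000216146, 1442 bases), whose protein reaches towards the peptidyl transferase centre, was the other abundant member that fell. It read 967, 993 and 1146 TPM in the controls and 733, 825 and 711 TPM with PRPF39 shRNA. The groups did not overlap, but the gap was narrower than in RPL13A. Its log2 fold change was -0.53 ± 0.14 (SE; adjusted p = 0.0388, edgeR) at 5 CPM. The call was lost when any 1 library other than control replicate 1 was left out, with log2 fold changes from -0.63 to -0.43 and adjusted p up to 0.143 (edgeR).

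The remaining 3 calls were scarce, long transcripts. RPL28 (ENST00000344063, 4796 bases), of the large subunit, stood at 10.4, 9.02 and 10.8 TPM in the controls and at 5.64, 5.12 and 5.30 TPM with PRPF39 shRNA. The highest PRPF39 shRNA library lay well below the lowest control, and the mean was 0.53 times the control. The log2 fold change of -0.95 ± 0.10 (SE; adjusted p = 0.0225, edgeR, over all transcripts) was the lowest of the 47. RPS23 (ENST00000296674, 3437 bases) encodes a protein near the decoding centre. Its level was 21.3, 19.1 and 19.2 TPM in the controls and 13.2, 10.3 and 11.4 TPM with PRPF39 shRNA, a log2 fold change of -0.81 ± 0.11 (SE; adjusted p = 0.0402, edgeR, over all transcripts). These listed transcripts are a minor part of ribosomal protein mRNA: the 10 scarce members held 0.040% of TPM in control and 0.033% in PRPF39 shRNA libraries.

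RPL4 (ENST00000307961, 2769 bases), whose protein lines the exit tunnel with a long loop, read 36.0, 32.8 and 33.8 TPM in the controls and 27.8, 25.8 and 24.8 TPM with PRPF39 shRNA. The groups were apart and the log2 fold change was -0.47 ± 0.08 (SE; adjusted p = 0.0116, edgeR) at 5 CPM. It missed the threshold without PRPF39 shRNA replicate 3 (adjusted p = 0.0627, edgeR).

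**Figure D3:**
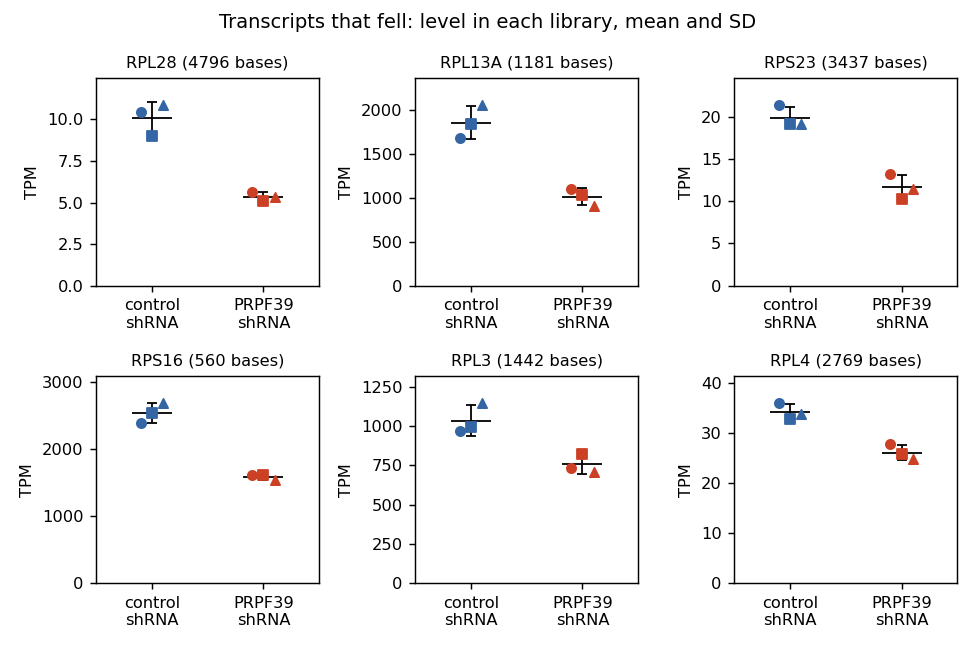
TPM of the 6 members that fell among transcripts of at least 5 CPM, in each of 3 control shRNA (blue) and 3 PRPF39 shRNA (red) libraries, with circles, squares and triangles for replicates 1, 2 and 3 and black lines for mean and SD. In each panel all red points lie below all blue points, by the widest relative margin in RPL28, RPL13A, RPS23 and RPS16.

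By place in the ribosome, none of the remaining members of the large subunit passed either test. The counts by place are a description, beside 9.13% of all transcripts of at least 5 CPM called lower. Differences between places were not tested. RPL5 and RPL11, which carry the 5S ribosomal RNA into the large subunit and, when free, bind MDM2 and stabilise p53, both failed the test. RPL5 stood at 2186, 2579 and 2422 TPM in the controls and at 2061, 2033 and 1947 TPM with PRPF39 shRNA, apart in TPM (log2 fold change -0.33 ± 0.13, SE; adjusted p = 0.114 at 5 CPM, edgeR). RPL11 stood at 864, 1041 and 1130 TPM and at 957, 1093 and 880 TPM, with full overlap (log2 fold change -0.12 ± 0.16, SE; adjusted p = 0.638 at 5 CPM, edgeR).

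None of the 4 stalk transcripts passed (9.13% of all were called lower at 5 CPM). RPLP1 and RPLP2 encode the flexible acidic proteins of the stalk that recruits elongation factors, RPL12 encodes a protein of its base, and RPL10A that of the opposite stalk, where deacylated tRNA leaves. Their log2 fold changes at 5 CPM ran from -0.23 (RPL10A) to -0.07 (RPLP2), with adjusted p from 0.221 to 0.734 (edgeR). RPLP2 was at 1005, 1085 and 1118 TPM in the controls and at 1030, 1187 and 1010 TPM with PRPF39 shRNA, and RPLP1 at 1726, 1783 and 1835 against 1617, 1810 and 1442 TPM. In all 4 the groups overlapped.

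Of 6 exit tunnel transcripts only RPL4 fell (9.13% of all were called lower at 5 CPM). RPL39, the most abundant member, encodes a very small protein of the tunnel wall and read 4338, 6112 and 5188 TPM in the controls and 4550, 5341 and 4986 TPM with PRPF39 shRNA. The spread between control libraries was wider than the difference between groups. RPL19 was at 2982 to 3428 TPM in the controls and 2858 to 3052 TPM with PRPF39 shRNA, and the scarce RPL31 at 40.7 to 55.3 and 35.5 to 44.6 TPM. The log2 fold changes of RPL39, RPL19, RPL22, RPL35 and RPL31 lay between -0.35 and -0.19 at 5 CPM.

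Among the 16 other transcripts of the large subunit, 3 fell (RPL28, RPL13A and RPL3) and 13 did not pass, beside 9.13% of all at 5 CPM. RPL36 and RPL27 had the only log2 fold changes above 0 of this set over all transcripts, 0.08 ± 0.13 and 0.04 ± 0.17 (SE; adjusted p = 0.814 and 0.937, edgeR); that of RPL27 was below 0 at 5 CPM. RPL36 stood at 1203, 1267 and 1375 TPM in the controls and 1288, 1495 and 1357 TPM with PRPF39 shRNA. RPL27 stood at 3880, 4701 and 4540 TPM and at 4289, 5047 and 4281 TPM. The groups overlapped in both. The long, scarce transcript of RPL37 came nearest to the threshold without passing (adjusted p = 0.0605 at 5 CPM, edgeR). It stood at 39.0, 46.4 and 54.2 TPM in the controls and 29.5, 38.0 and 29.8 TPM with PRPF39 shRNA. Its log2 fold change of -0.62 ± 0.19 (SE) at 5 CPM was lower than those of RPL3 (-0.53 ± 0.14) and RPL4 (-0.47 ± 0.08), which passed.

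In the head of the small subunit RPS16 alone of 9 transcripts fell, near the 9.13% of all called lower at 5 CPM. RPS29, a small zinc-binding protein, was at 4142, 6038 and 5056 TPM in the controls and at 4166, 4339 and 3370 TPM with PRPF39 shRNA (log2 fold change -0.39 ± 0.18, SE; adjusted p = 0.169 at 5 CPM, edgeR). Control replicate 1 lay among the PRPF39 shRNA libraries. RPS12 and RPS27A, the latter made as a fusion with ubiquitin, had log2 fold changes of -0.13 and -0.04 at 5 CPM. RPS12 read 1795, 2219 and 2034 TPM against 1894, 1986 and 1944 TPM, and RPS27A 57.3, 66.0 and 64.5 TPM against 62.7, 74.6 and 55.0 TPM. Both overlapped.

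In the body of the small subunit RPS23 alone of 10 transcripts fell, again near the 9.13% of all called lower at 5 CPM. RPS3A was at 4170, 5812 and 5206 TPM in the controls and at 3980, 4281 and 3407 TPM with PRPF39 shRNA (log2 fold change -0.47 ± 0.19, SE; adjusted p = 0.114 at 5 CPM, edgeR), overlapping through control replicate 1. RPS9, a protein of the mRNA entry site, had a scarce listed transcript at 78.1, 94.7 and 95.3 TPM against 70.1, 72.9 and 53.3 TPM, apart but not past the threshold (adjusted p = 0.0731 at 5 CPM, edgeR). RPS2, of the same site, lay at 3916 to 4619 TPM and 3685 to 4400 TPM, and RPS6, the substrate of S6 kinase, at 515 to 533 TPM and 442 to 526 TPM. The 10 log2 fold changes were all below 0 and had a median of -0.29 at 5 CPM.

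Members moved together from library to library, and the number of calls at 5 CPM differed most without control replicate 1. In normalised CPM, control replicate 1 was the lowest of the 3 controls for 47 of 47 members, with a median log2 deviation from the members' own means of -0.19, against 0.33 and 0.18 in control replicates 2 and 3. The PRPF39 shRNA libraries had medians of -0.11, 0.04 and -0.24. Control replicate 1 was above the mean of all 6 libraries in 5 members, and these were RPL28, RPL13A, RPS23, RPS16 and RPL4, all of them among the 6 that fell. The calls rest on the same values, so this overlap is no separate support for them. Without control replicate 1 the lower calls at 5 CPM went from 6 to 27 of 47, against 11% of all 20127 transcripts tested that way. Leaving out any other library gave 4 or 5, against 2.41% to 5.3% of all transcripts tested in those fits, and RPL13A, RPS16, RPS23 and RPL28 were among them each time. In TPM it was the lowest control for 42 of 47 members and its median deviation was -0.04, above those of PRPF39 shRNA replicates 1 and 3 (-0.10 and -0.20). How many of all transcripts were also lowest of the controls in control replicate 1 was not counted. What sets that library apart was not tested.

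**Figure D4:**
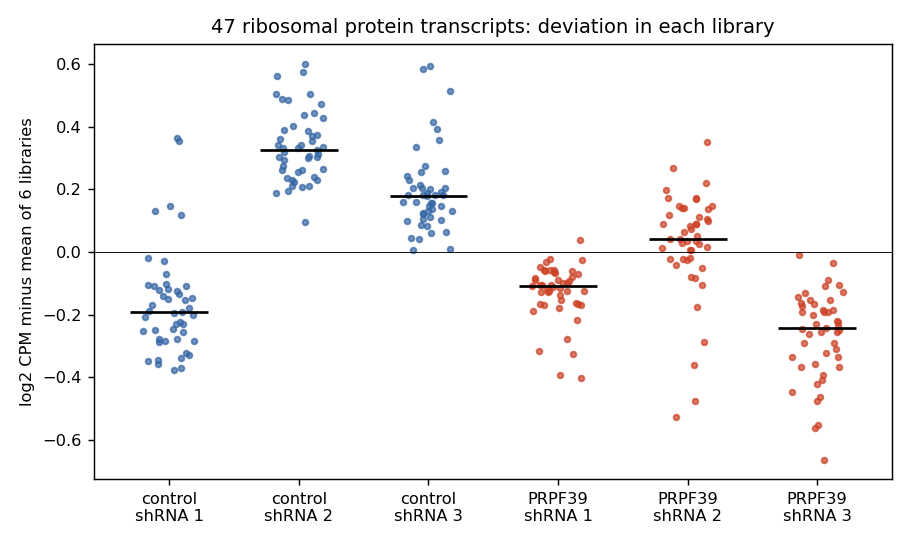
Deviation of each of the 47 transcripts from its mean over the 6 libraries (log2 CPM with TMM factors), 1 column per library, with a black line at the median. Control replicate 1 has a median of -0.19, among the PRPF39 shRNA libraries (-0.24 to 0.04) and below control replicates 2 and 3 (0.33 and 0.18).

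The scale mattered for how many members stood apart. In TPM, 16 members had all 3 PRPF39 shRNA libraries below all 3 controls and 0 had them above, against 14.3% and 21.8% of the transcripts of at least 5 CPM. In CPM with TMM factors, the scale of the tests, these were 6 and 0 members against 17% and 24%. The 6 were the same members that fell at 5 CPM. As shares of the members' own summed TPM, which leave out any shift common to all, 10 members were lower without overlap and 8 were higher. This scale exists for the members alone, so these 2 counts have no share of all transcripts to stand beside. RPL13A made up 2.096% ± 0.129 of that sum in control and 1.302% ± 0.117 in PRPF39 shRNA libraries, RPS16 2.87% ± 0.16 and 2.04% ± 0.10, and RPL27 4.93% ± 0.06 and 5.80% ± 0.21 (SD, n = 3 each). A rise of some shares follows from the fall of others, since they sum to a fixed total.

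Longer listed transcripts tended to have lower fold changes. Spearman's rho between length and log2 fold change was -0.37 across the 47 members, which share their libraries and are not replicates. Length was also tied to level (rho = -0.69 with mean TPM). The median log2 fold change was -0.38 in the 10 scarce and -0.17 in the 37 abundant members. RPS16, at 560 bases, and RPL13A, at 1181, lie away from this trend.

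**Figure D5:**
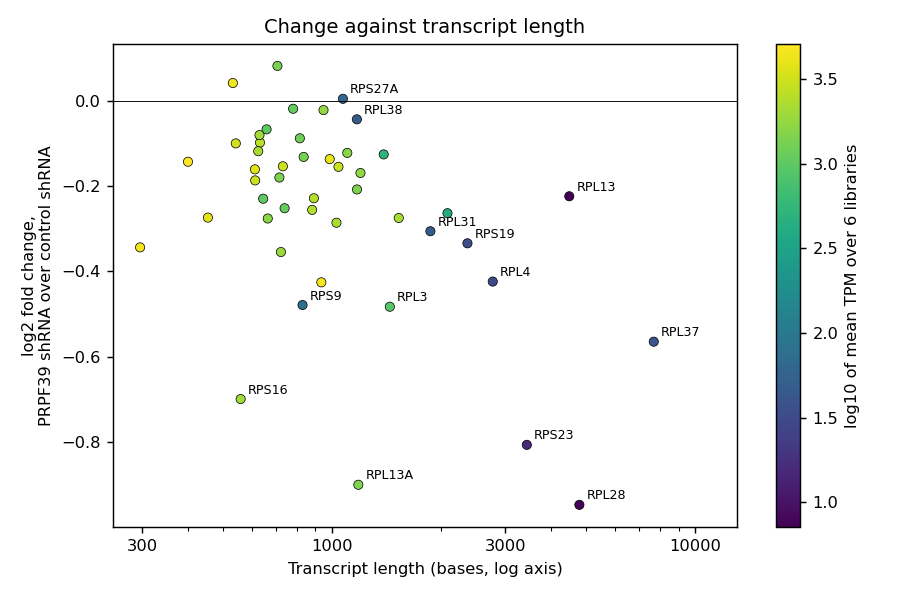
Log2 fold change (PRPF39 shRNA over control shRNA) of the 47 members against transcript length in bases (log axis), coloured by log10 of mean TPM; scarce members and those that fell are named. RPL28 and RPS23 are long, scarce and at or below -0.81, while RPL13A and RPS16 are abundant and at -0.90 and -0.70.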

How the data were processed

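Polyadenylated RNA of 6 HEK293 libraries was analysed, grouped by the sample titles. The authors deposited estimated counts (not scaled) and TPM (scaled by effective length to a fixed sum) for each transcript; Salmon 0.11.1, STAR 2.7.9a, cutadapt 2.1 and DESeq2 1.32.0 are listed, with build hg38, per the submitters' processing notes, and options and annotation release are not given in the sources used here. The deposited lengths are in bases, per the file headers. Members and role classes were chosen with earlier results of these data known.

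Estimated counts were rounded and tested across all transcripts with edgeR 4.0.16 (R 4.3.3): filterByExpr (minimum count 10), TMM, quasi-likelihood test of group, Benjamini-Hochberg adjustment over all transcripts tested, threshold 0.05. The fit was repeated on transcripts that averaged 5 CPM or more. The SE of a log2 fold change is its size over the root of the F statistic. The procedure was tested on simulated data. Alternatives were RLE and upper-quartile factors, no filter, DESeq2 1.42.0, limma-voom (limma 3.58.1), effective-length offsets, a replicate block, leaving out each library and, chosen after seeing the data, limma on log2(TPM + 1). No pair of libraries agreed within sampling noise (chi-square per degree of freedom at least 32). Named members were all of the 5S and stalk classes, in each other class the most abundant and the 2 with the highest and the 2 with the lowest log2 fold change, and all that passed either test. RPL13, RPL22, RPL35, RPL37, RPL38 and RPS19 were named after their values were seen. Start windows are from RefSeq.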

Additional observations from a re-analysis of the deposited data

How the results depend on the processing

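The 2 lower calls over all transcripts (0.461% of all tested) stayed at 2 with RLE factors (0.423%), no filter (0.242%) and effective-length offsets (0.436%). With upper-quartile factors the calls were 3 (0.445%). They were 6 at 5 CPM (9.13% of all transcripts tested), 6 with DESeq2 (4.23%), 4 with limma-voom (0.454%) and 0 without any 1 library, where 0 to 12 of all transcripts were called lower. In those fits the log2 fold change of RPL28 was -0.996 to -0.886 and that of RPS23 -0.908 to -0.748. At 5 CPM the 6 lower calls became 8 with limma on log2(TPM + 1) (5.58% of all). They were 4 to 27 without 1 library each (2.41% to 11% of all), the 27 without control replicate 1. No setting gave a higher call, where 0% to 10.2% of all transcripts were called higher. At an unadjusted p under 0.05, 0 members were higher in edgeR, DESeq2 and limma. The median log2 fold change of -0.21 ran from -0.33 to -0.11 over all alternatives to the test of all transcripts. As a share of estimated counts the members held 4.78% in control and 4.11% in PRPF39 shRNA libraries, against 8.87% and 7.81% of TPM. Over the 14 alternatives to the test of all transcripts, 14 of 47 members changed sign at least once, and 6 of 47 over the 8 alternatives at 5 CPM; 0 of them were called. The labels do not say that replicate numbers mark a shared culture, and deviations of same-numbered libraries correlated at 0.16, 0.03 and 0.00011, so they were not taken as pairs. With the replicate block 0 members, and 0 of all transcripts, were called lower in the test over all transcripts (edgeR). At an unadjusted p under 0.05, 8 members were lower there, and 14264 of all 97571 transcripts passed in either direction (edgeR). At 5 CPM the block gave 7 lower members (8.99% of all).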
